A study of Homo sapiens with 6 samples.

Results

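The MYC network genes are a set of transcription factors that pair through a basic helix-loop-helix leucine zipper, together with a pair of their well-known target genes. The 10 genes described here are *MYC*, *MYCL*, *MAX*, *MXD1*, *MXD3*, *MXD4*, *MXI1*, *MNT*, *NCL* and *ODC1*, out of 58302 genes in the table. All 10 were matched from symbol to Ensembl gene, and all 10 passed the filter on low counts that left 16414 genes for testing. *MYC* was chosen by its measured counts, of which that in a single control library was far above the others, so its values are a description and carry no test. The partners and targets were chosen for what they do, but with earlier results of these data known.

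RNA was sequenced from HCT116, a human colorectal cancer cell line. Of 6 libraries, 3 were from cells transfected with an siRNA against *SLCO1B3* (si-SLCO1B3), which encodes an organic anion transporter, and 3 from cells transfected with a negative control siRNA (si-NC, the control libraries). The libraries of each group are numbered 1, 3 and 5, and all 6 are of the same cell line with no other treatment. The labels give a different *SLCO1B3* siRNA sequence to each si-SLCO1B3 library, whereas the methods of the study name a single one, so which siRNA each library received is not settled here. The sequences labelled for libraries 1, 3 and 5 have the seed sites, described below, of the siRNAs that the paper calls si2, si3 and si1. The library numbers are thus not the paper's siRNA numbers, and si1, which the methods name, matches the label of library 5. The paper found si3 ineffective against *SLCO1B3*, unlike its other siRNAs. The words "after silencing" below therefore name the si-SLCO1B3 group and not a loss shown for each library. Nothing says that the libraries of a group came from separate cultures, and p-values therefore measure only the spread between these libraries.

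MYC drives growth by binding E-box sequences in DNA as a dimer with MAX. The MXD proteins, MXI1 and MNT also dimerise with MAX at E-boxes but recruit repressor complexes, so they oppose MYC for the same partner and the same sites. In colorectal cancer cells *MYC* is a known target of β-catenin signalling. Nucleolin (*NCL*), a nucleolar protein of ribosome production, and ornithine decarboxylase (*ODC1*), the first enzyme of polyamine synthesis, are classical MYC-induced genes.

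The canonical E-box is shown first, since it is the sequence that all these factors read. RefSeq promoters of 300 bases (250 before and 50 after a start site, GRCh38.p14) were held for 9 of the 10 genes, and 13 promoters in all were searched for CACGTG, which reads the same on both strands. It was found in 3 of the 13 promoters (23.1%), against 7.26% of all 35116 promoters. These were promoters of *ODC1*, *MNT* and *MXD4*. A promoter of *ODC1* held a pair of E-boxes, whereas more than 1 was found in 0.664% of all promoters. The other *ODC1* promoter, chr2:10448278-10448577, lies upstream of it and held 0. No CACGTG lay in the promoter windows of *NCL*, *MAX*, *MXD1*, *MXD3*, *MXI1* or *MYCL*, which says only that these letters are not in these windows. Each E-box is printed in capitals within 30 bases on the strand of the gene. Counted from the start site of its own promoter, the first *ODC1* site begins at -29, the second at 5, the *MNT* site at -193 and the *MXD4* site at -238.
ODC1, first site, chr2:10448024-10448053: ccgggccccgggCACGTGtgcggcgcgcct
ODC1, second site, chr2:10447990-10448019: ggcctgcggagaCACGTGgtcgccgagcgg
MNT, chr17:2401236-2401265: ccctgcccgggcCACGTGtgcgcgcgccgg
MXD4, chr4:2262330-2262359: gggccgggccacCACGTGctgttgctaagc

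The libraries held 17290442 to 21278903 counts, no library was a copy of another, and levels here are in CPM (counts divided by library sizes that edgeR scaled by its TMM method). *SLCO1B3* held 8.88, 14.2 and 20.7 CPM in control libraries 1, 3 and 5, against 5.86, 9.16 and 3.15 CPM after silencing, so the groups overlapped. Of 10 colon epithelium markers 8 passed the filter, among them *KRT8*, *KRT19*, *KRT18* and *EPCAM*, while *VIL1* held at most 0.11 CPM. The 7 fibroblast markers all passed the filter, with a summed level of 135.7 to 237.1 CPM in the control libraries (209.0 CPM in library 1), against 118.1 to 162.1 CPM after silencing. Most of this sum came from *COL1A1* (60.0 to 107.9 CPM), *COL1A2* (25.5 to 61.6 CPM) and *COL3A1* (22.8 to 48.1 CPM). *LUM* and *DCN* held 3.10 to 10.8 CPM, while *PDGFRA* held at most 1.30 CPM and *THY1* at most 0.91 CPM. The log2 fold change was below 0 for 6 of the 7 and above 0 for *THY1* (0.59). Of 6 leukocyte and 5 endothelial markers, 3 each passed, with summed levels over all 6 libraries of 27.4 to 39.7 CPM and 3.68 to 6.93 CPM. The part of these transcripts in the results below was not tested, and in bulk RNA fewer cells of a type and less RNA per cell cannot be told apart.

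*MYC* (ENSG00000136997, chromosome 8, 127735434 to 127741434 on the plus strand of GRCh38) was high in si-NC library 1 alone. Its counts were 2955, 144 and 146 in si-NC libraries 1, 3 and 5 and 143, 159 and 223 in si-SLCO1B3 libraries 1, 3 and 5. Scaled for depth, these were 139.6, 8.19 and 7.91 CPM in the control libraries, against 7.62, 8.09 and 10.8 CPM after silencing. The other 5 libraries thus lay within a narrow band that held libraries of both groups. The level in si-NC library 1 was 16.4-fold that of the other si-NC libraries and 12.4-fold that of the next highest library, with 0.5 CPM added to each value here and in all ratios below. The same step was found in the deposited FPKM (fragments divided by gene length and depth), with 15.03 in si-NC library 1 and 0.812 to 1.11 in the others. By FPKM, *MYC* ranked 2192 among the 16414 genes tested in si-NC library 1, and between 11398 and 12633 in the other libraries.

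**Figure D1:**
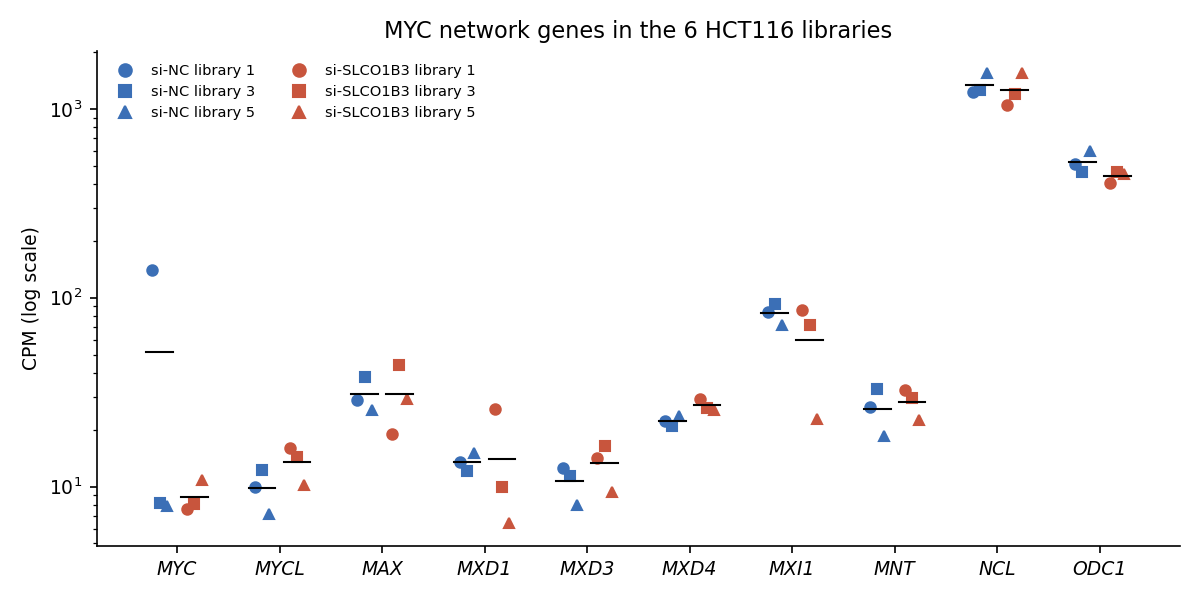
CPM on a log scale (vertical) of the 10 MYC network genes (horizontal) in each library, with circles, squares and triangles for libraries 1, 3 and 5, blue for si-NC, red for si-SLCO1B3, and a bar at the mean of each group. *MYC* stands at 139.6 CPM in si-NC library 1 and between 7.62 and 10.8 CPM elsewhere, while *NCL* and *ODC1* stand high in all 6 libraries.

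Among all 16414 genes tested, *MYC* had the widest gap between its highest and its next library, 3.63 on the log2 scale of CPM plus 0.5. A gap of at least 1 was found for 64 genes (0.39%), of which 10 had si-NC library 1 as their highest. The other libraries had 2 to 16 such genes each. Next in width were AC079781.5 with 3.17 in si-SLCO1B3 library 3 and AC092143.1 with 2.81 in si-SLCO1B3 library 5. Steps in single libraries were therefore not limited to *MYC* or to si-NC library 1.

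The genes whose profile over the 6 libraries lay nearest to that of *MYC* were sought among the 11844 tested genes whose mean reached 5 CPM. The measure was the root mean square difference of centred log2 CPM, which was 1.49 for *MYC* against a flat profile. Among the nearest were *ZNF589* (0.70), *ZC3H10* (0.85), *TRAPPC5* (0.86) and *ZNF268* (0.95). *ZNF589*, a zinc finger gene, had counts of 358, 67 and 36 in control libraries 1, 3 and 5, against 52, 79 and 70 after silencing. All 4 were highest in si-NC library 1, and 0 of the 4 stood on a list of MYC-responsive genes used here.

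How *MYC* was counted can bear on its level. If the authors took depth as the total counts of a library, the length by which they divided a gene follows from its count and its FPKM. For the 11051 genes that reached 100 counts in each library this length was the same in all 6 libraries within 0.000869%. A factor common to all libraries would leave that sameness unchanged, so the lengths rest on this reading of depth. For *MYC* this length was 9431 bases, 3.14 times the 3001 bases of its merged exons in GENCODE 29 and longer than the whole gene of 6001 bases there. An implied length above the whole gene was found for 9.37% of the 11046 of these genes with a GENCODE 29 entry. For the other 9 genes the implied length was 1.27 to 3.37 times the merged exons. No other gene of GENCODE 29 shares exon bases with *MYC*. Of its neighbours, *CASC11* had 0 to 3 counts in each library and *PVT1*, a long non-coding RNA gene downstream, held 33.4 to 44.3 CPM with 35.3 CPM in si-NC library 1. *CASC19*, farther upstream, held 5.20, 14.7 and 9.96 CPM in control libraries 1, 3 and 5. None of these neighbours was high in the library in which *MYC* was high. The part of the gene model in the step of *MYC* was not tested.

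The other MYC-type activator, *MYCL* (ENSG00000116990, chromosome 1, 39895426 to 39902256), was not raised in si-NC library 1. It held 9.97, 12.2 and 7.20 CPM in control libraries 1, 3 and 5, against 16.0, 14.4 and 10.1 CPM after silencing. Each si-SLCO1B3 library lay above the si-NC library of its own number, but the groups overlapped. The log2 fold change was 0.46 with a standard error of 0.25 (adjusted p = 0.9998 by edgeR's quasi-likelihood test). With the library number as a block it was 0.47 (standard error 0.15), with an unadjusted p of 0.0218 and an adjusted p of 0.682 by the same edgeR test. *MYCN*, the third MYC gene, had 2, 0 and 2 counts in si-NC and 0 in each si-SLCO1B3 library, and it was removed by the filter.

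*MAX* (ENSG00000125952, chromosome 14, 65006174 to 65102695), the shared partner, held 28.9, 38.1 and 25.5 CPM in control libraries 1, 3 and 5, against 18.9, 44.3 and 29.1 CPM after silencing. The si-SLCO1B3 group thus held both the lowest and the highest library. Its means were 30.8 ± 6.52 CPM (SD, n = 3) in si-NC and 30.7 ± 12.8 CPM (SD, n = 3) in si-SLCO1B3, and the log2 fold change was -0.0037 with a standard error of 0.31 (adjusted p = 0.9998 by edgeR's quasi-likelihood test). *MAX* in si-NC library 1, beside the high *MYC*, lay within 0.0077 of the median of the other 5 libraries on the log2 scale.

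Of the MXD-type repressors, *MXI1* (ENSG00000119950, chromosome 10, 110207605 to 110287365) was low in a single library. It held 84.3, 92.4 and 72.0 CPM in control libraries 1, 3 and 5, against 85.6, 71.4 and 22.7 CPM after silencing. Only si-SLCO1B3 library 5 stood apart, and the remaining 5 libraries of both groups shared a range of 71.4 to 92.4 CPM. The gap to the next lowest library was 1.63 on the log2 scale, a gap matched by 0.317% of all genes tested, and a low gap of at least 1 was found for 1.05% of genes. si-SLCO1B3 library 5 had 50 genes with a low gap of at least 1, the most of any library, against 16 to 30 in the others. Over the groups, the log2 fold change of *MXI1* was -0.47 (standard error 0.42, adjusted p = 0.9998 by edgeR's quasi-likelihood test), and -0.079 without si-SLCO1B3 library 5.

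*MXD1* (ENSG00000059728, chromosome 2, 69897688 to 69942945), whose protein is known to rise when cells stop dividing and differentiate, varied most among the si-SLCO1B3 libraries. It held 13.6, 12.1 and 15.1 CPM in control libraries 1, 3 and 5, against 25.8, 9.97 and 6.40 CPM after silencing. The si-SLCO1B3 libraries lay on both sides of the si-NC libraries. The log2 fold change was 0.052 with a standard error of 0.46 (adjusted p = 0.9998 by edgeR's quasi-likelihood test), and it turned to -0.73 without si-SLCO1B3 library 1. *MXD1* shares 237 exon bases on the same strand with *SNRNP27*, a splicing gene that held 29.6 to 40.2 CPM, so the counts of *MXD1* are uncertain by what was shared.

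*MXD4* (ENSG00000123933, chromosome 4, 2247432 to 2262294) held 22.1, 21.05 and 23.6 CPM in control libraries 1, 3 and 5, against 29.1, 26.2 and 25.4 CPM after silencing. All 3 si-SLCO1B3 libraries lay above all 3 si-NC libraries (two-sided exact permutation test, p = 0.1, the smallest that 3 against 3 allow). The log2 fold change was 0.27 (standard error 0.13), and with an adjusted p of 0.9998 by edgeR's quasi-likelihood test the difference did not pass. *MXD3* (ENSG00000213347, chromosome 5, 177301461 to 177312757) held 12.6, 11.4 and 8.02 CPM in the control libraries, against 14.1, 16.4 and 9.31 CPM after silencing, with overlap between the groups. It shares 926 exon bases with *RAB24* on the same strand and 1158 with *PRELID1* on the opposite strand, and no source used here says whether counting used the strand. *MNT* (ENSG00000070444, chromosome 17, 2384060 to 2401118), the repressor found in dividing and resting cells alike, held 26.3, 32.8 and 18.5 CPM in the control libraries, against 32.5, 29.4 and 22.6 CPM after silencing. *MNT* was lowest in library 5 of each group. The log2 fold changes of *MXD3* and *MNT* were 0.32 (standard error 0.26) and 0.12 (standard error 0.23).

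**Figure D2:**
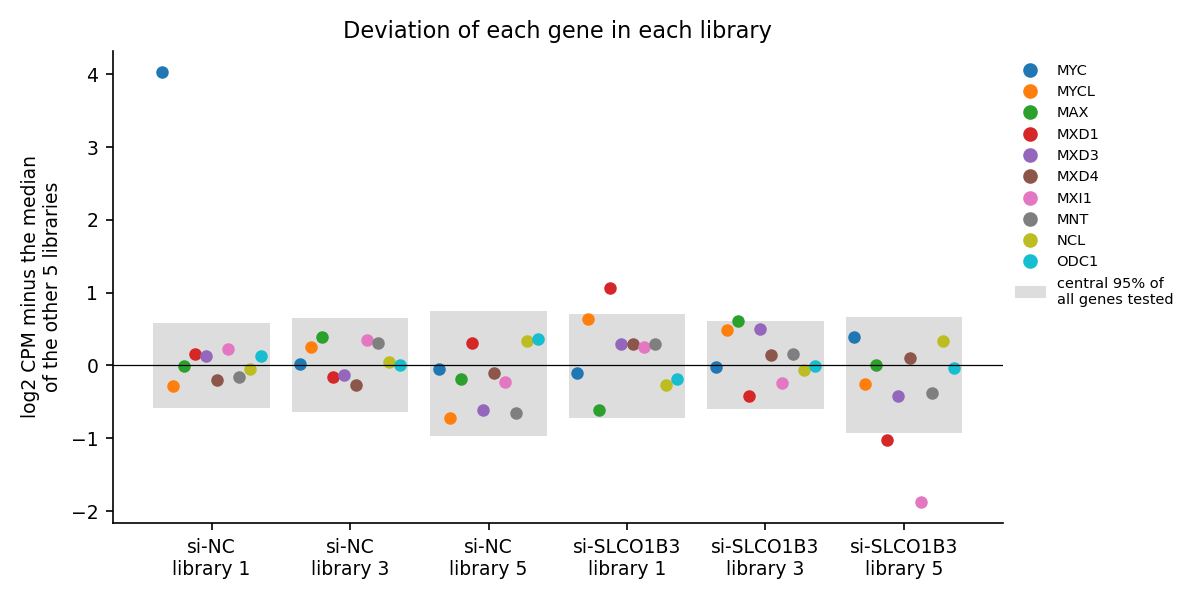
Deviation of each gene in each library (vertical, log2 CPM minus the median of the other 5 libraries) for the 6 libraries (horizontal). Points are the 10 genes and grey bands hold the central 95% of all genes tested in that library. *MYC* stands at 4.03 in si-NC library 1, *MXI1* at -1.87 and *MXD1* at -1.03 in si-SLCO1B3 library 5, and *MXD1* at 1.07 in si-SLCO1B3 library 1.

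Read per length, the deposited FPKM gave the order of the genes. In si-NC cells *ODC1* (139.0 ± 13.9 FPKM, SD, n = 3) and *NCL* (134.0 ± 13.5 FPKM, SD, n = 3) were highest, within each other's spread. *MXI1* followed with 9.48 ± 1.40 FPKM (SD, n = 3) and was the most abundant repressor mRNA. *MXD4* (2.43 ± 0.0811 FPKM, SD, n = 3), *MNT* (2.27 ± 0.672) and *MAX* (2.07 ± 0.480) lay within their spread, as did *MYCL* (1.35 ± 0.375), *MXD3* (1.24 ± 0.303) and *MXD1* (1.03 ± 0.0898) among themselves. The mean of *MYC* was 5.58 ± 8.19 FPKM (SD, n = 3), which places it nowhere in this order, since it rests on si-NC library 1. In the other si-NC libraries *MYC* lay at 0.883 and 0.812 FPKM, the lowest of the 10 genes in both. This order depends on the lengths the authors used. The implied length was 3.14 times the merged exons for *MYC* and 3.37 times for *MAX*, against 1.27 to 2.06 times for the others. Ranks of *MYC* and *MAX* in FPKM are therefore not read as ranks of mRNA level.

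Summed by role, *MYC* and *MYCL* together held 16.4 FPKM in si-NC library 1 and 1.77 to 3.01 FPKM in the other 5 libraries. The repressors *MXD1*, *MXD3*, *MXD4*, *MXI1* and *MNT* together held 17.1, 18.2 and 14.0 FPKM in si-NC libraries 1, 3 and 5 and 19.5, 16.5 and 8.63 FPKM in si-SLCO1B3. Repressor mRNA per MYC-type mRNA was therefore 1.04 in si-NC library 1 and 3.51 to 7.94 in the others. The 3.51 was that of si-SLCO1B3 library 5, where *MXI1* was low and made up 29.1% of repressor FPKM there and 50.2% to 58.8% elsewhere. These sums weigh mRNA only and depend on the lengths the authors used.

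**Figure D3:**
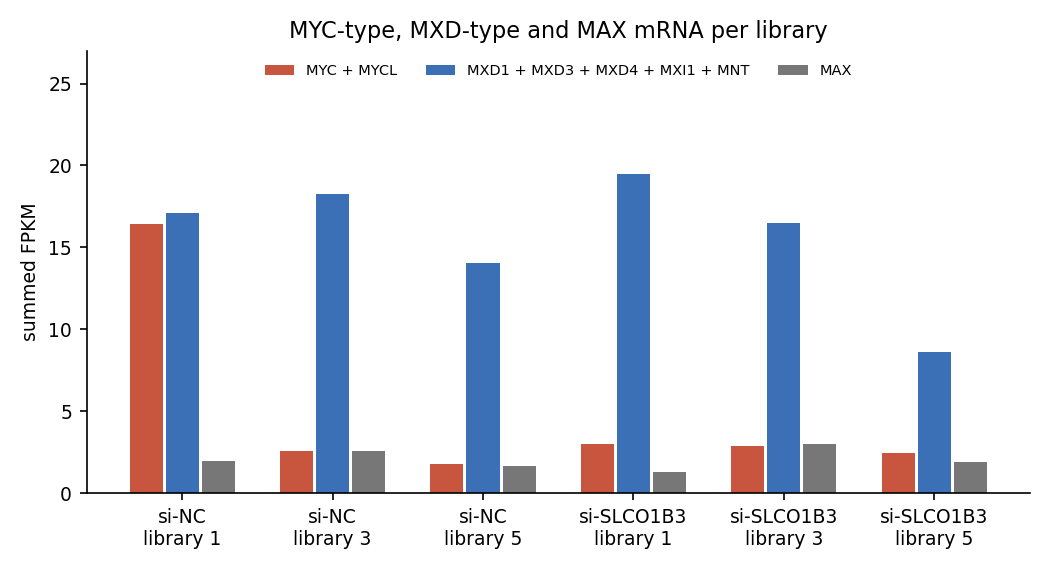
Summed FPKM (vertical) in each library (horizontal) of MYC and MYCL (red), of the repressors MXD1, MXD3, MXD4, MXI1 and MNT (blue), and of MAX (grey). The red bar reaches 16.4 FPKM in si-NC library 1 and at most 3.01 FPKM elsewhere, and the blue bar is lowest, at 8.63 FPKM, in si-SLCO1B3 library 5.

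The MYC-responsive genes *NCL* and *ODC1* were next examined for the step seen in *MYC*. *NCL* (ENSG00000115053, chromosome 2, 231453531 to 231483641) held 1225, 1261 and 1544 CPM in control libraries 1, 3 and 5, against 1051, 1204 and 1543 CPM after silencing. It was highest in library 5 of both groups, and si-NC library 1 was the lowest si-NC library. *ODC1* (ENSG00000115758, chromosome 2, 10439968 to 10448504) held 508.9, 465.0 and 595.6 CPM in the control libraries, against 407.3, 462.7 and 453.8 CPM after silencing. Relative to the other si-NC libraries, si-NC library 1 stood at 0.873-fold for *NCL* and 0.960-fold for *ODC1*, where it stood at 16.4-fold for *MYC*. The partners and repressors stood between 0.910-fold for *MAX* and 1.28-fold for *MXD3*. For all genes tested, the central 95% of this log2 ratio ran from -0.65 to 0.62, and 9 of the 10 genes lay inside it.

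Between the groups, *NCL* did not differ beyond its spread (log2 fold change -0.085, standard error 0.16, adjusted p = 0.9998 by edgeR's quasi-likelihood test). *ODC1* was lower in every si-SLCO1B3 library than in any si-NC library, with means of 523.2 ± 66.4 and 441.3 ± 29.8 CPM (SD, n = 3; two-sided exact permutation test, p = 0.1). Its log2 fold change was -0.25 with a standard error of 0.12 (adjusted p = 0.9998 by edgeR's quasi-likelihood test). The libraries numbered 3 lay closest to each other.

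The step of *MYC* was looked for in 69 further genes known to respond to MYC, written by hand in the lists of nucleolar genes, of metabolism, and of the cell cycle and translation. Of these, 67 were tested. In si-NC library 1 relative to the other si-NC libraries, 17 were higher and 50 lower, with a median log2 ratio of -0.10 against -0.0033 for all genes tested. In size, 2 of the 67 reached 1, both lower, against 1.55% of all genes tested in either direction. Of the 22 nucleolar genes, 20 were lower and the median was -0.17. The highest were *NOP2* (0.32) and *GNL3* (0.0084), and the lowest *FBL* (-0.34) and *RRP9* (-0.34). Of the 26 metabolic genes, *PAICS* (0.38) and the lactate transporter gene *SLC16A1* (0.12) were highest, and *PPAT* (-1.08) and *APEX1* (-1.01) lowest. *PAICS* and *PPAT* both encode enzymes of purine synthesis. Of the 19 genes of the cell cycle and translation, the range was -0.56 (*PTMA*) and -0.31 (*EIF4A1*) to 0.13 (*E2F2*) and 0.16 (*TERT*). The highest of the 67 ratios was thus 0.38, where that of *MYC* was 4.03.

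**Figure D4:**
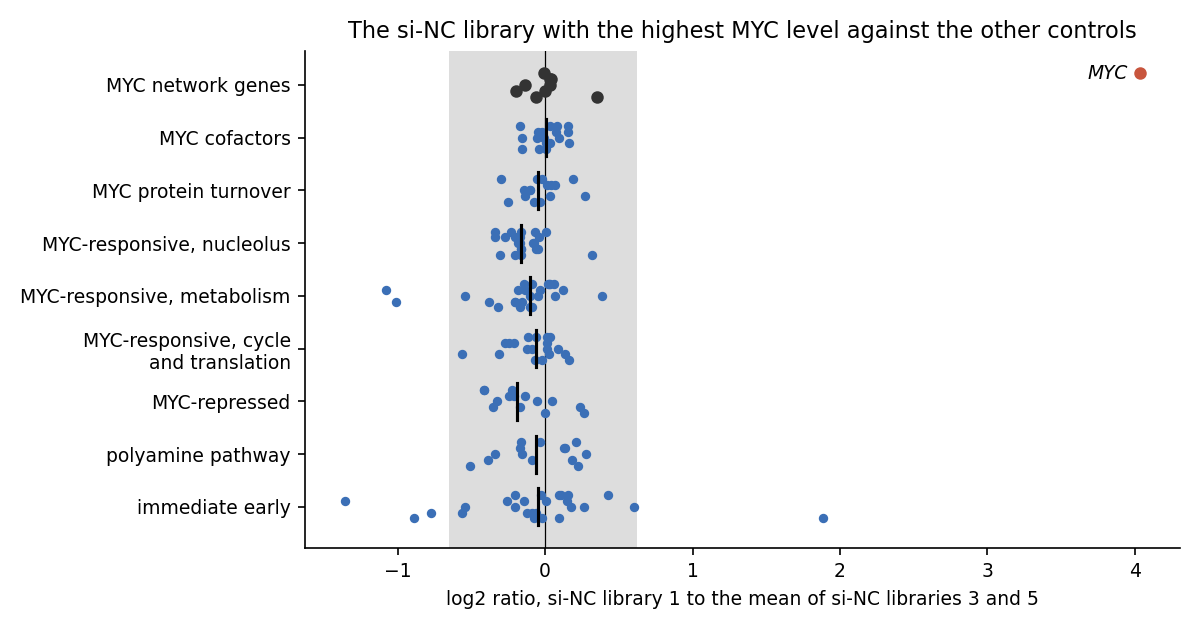
Log2 ratio of si-NC library 1 to the mean of si-NC libraries 3 and 5 (horizontal) for the 10 MYC network genes and 8 gene lists (vertical). Each point is a gene, black bars are list medians, and the grey band holds the central 95% of all genes tested. *MYC* stands at 4.03, while the 67 MYC-responsive genes run from -1.08 to 0.38.

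Genes that MYC is known to repress were examined in the same way. Of 14 tested, 10 were lower in si-NC library 1 than in the other si-NC libraries and 4 higher, with a median of -0.19 against -0.0033 for all genes tested. The range ran from *GADD45B* (-0.42) and *CCND1* (-0.41) to *CEBPA* (0.24) and *GADD45A* (0.26). The cofactors of MYC had a median of 0.0056, from *RUVBL2* (-0.17) and *RUVBL1* (-0.16) to *SIN3A* (0.16) and *HCFC1* (0.16). The genes of MYC protein turnover had a median of -0.045, with *USP36* at -0.25, *BTRC* at 0.19 and *PIM1* at 0.27. Of 26 immediate early genes, whose short-lived mRNAs rise with growth signals as that of *MYC* does, 11 were higher and 15 lower, with a median of -0.045. The range there was wider, from *KLF6* (-1.36) and *CTGF* (-0.89) to *ATF3* (0.60) and *IER2* (1.88). *IER2* varied in both groups, with 134.0, 60.8 and 11.05 CPM in the control libraries, against 60.6, 12.8 and 113.9 CPM after silencing. Of 11 Wnt target genes tested, 8 were higher and 3 lower, with a median of 0.23, from *SP5* (-0.27) and *CD44* (-0.020) to *TCF7* (0.40) and *EPHB3* (0.41). Of the markers, those of colon epithelium ran from *KRT18* (-0.31) and *CDH1* (-0.14) to *EPCAM* (0.10) and *CLDN4* (1.62), and those of fibroblasts from *DCN* (-0.20) and *LUM* (0.035) to *COL1A1* (0.20) and *THY1* (0.39).

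Each library was also set against the median of the other 5 for the MYC-responsive genes. The median deviation of the 67 genes was 0.20 in si-NC library 5 and 0.28 in si-SLCO1B3 library 5. It was -0.030 and -0.016 in si-NC libraries 1 and 3, and -0.21 and -0.047 in si-SLCO1B3 libraries 1 and 3, where all genes tested had medians of -0.010 to 0.0070. The cell cycle and translation list alone stood at 0.14 in si-NC library 5 and 0.054 in si-SLCO1B3 library 5. *NCL* stood at 0.33 in library 5 of each group and at -0.26 in si-SLCO1B3 library 1. *ODC1* stood at 0.36 in si-NC library 5 and at -0.035 in si-SLCO1B3 library 5. *MYC* itself stood at -0.048 in si-NC library 5 and 0.40 in si-SLCO1B3 library 5. What the library number stands for is not given in the sources used here.

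Over all 16414 genes, edgeR's quasi-likelihood test called 0 genes after adjustment at 0.05. Before adjustment 716 genes (4.36%) passed 0.05, of which 434 (2.64%) were lower and 282 (1.72%) higher after silencing. DESeq2 called 4 genes (0.0244%) that also had a log2 fold change of more than 2 in size. None of the 10 could be among them, since only *MYC* had so large a change and DESeq2 gave it no p-value. Among the 10 genes, 1 passed 0.05 before adjustment, namely *MYC*, for which nothing is read from it. The fitted log2 fold change of *MYC* was -2.55 (standard error 1.09) with all libraries, and 0.14 without si-NC library 1. Groups did not overlap for 2 of the 10 genes, against 10.5% of all genes tested. These were *MXD4*, higher as in 5.01% of all genes, and *ODC1*, lower as in 5.5% of all genes. With the library number as a block, 1175 genes (7.16%) passed 0.05 before adjustment, and among the 10 genes *MYCL* did and *MYC* did not.

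**Figure D5:**
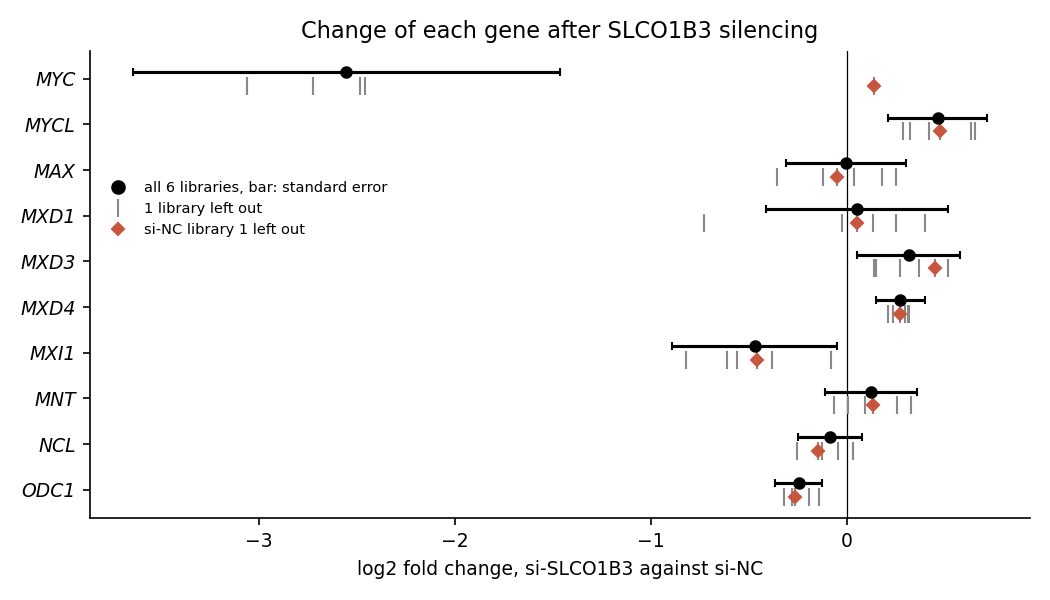
Log2 fold change of si-SLCO1B3 against si-NC (horizontal) for each gene (vertical). Black points and bars are the fit of all 6 libraries with its standard error, grey ticks leave out a library each, and red diamonds leave out si-NC library 1, where *MYC* moves from -2.55 to 0.14.

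Of the other genes of the network, *MLX*, *MLXIP*, *MLXIPL* and *MGA* were tested and 0 had an unadjusted p-value under 0.05. *MLX*, a MAX-like partner, held 60.9 to 89.1 CPM in the control libraries, against 65.7 to 84.8 CPM after silencing. *MLXIP*, the glucose-sensing MondoA, had a log2 fold change of 0.16 (standard error 0.12), and *MGA*, a repressor that binds MAX, of -0.010 (standard error 0.15). In si-NC library 1, *MLX* had the lowest log2 ratio to the other si-NC libraries (-0.48) and *MLXIPL* the highest (0.43).

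The median log2 fold change after *SLCO1B3* silencing was 0.029 for the nucleolar list, -0.063 for the metabolic list and -0.029 for the list of the cell cycle and translation, against 0.0049 for all genes tested. Of the 67 genes 39 were lower and 28 higher, 0 passed an adjusted p-value under 0.05, and 2 (*NPM1* and *SLC16A1*) passed 0.05 before adjustment, against 4.36% of all genes tested. *NPM1*, nucleophosmin, held 1257, 1211 and 1426 CPM in the control libraries, against 1074, 1114 and 890.9 CPM after silencing (log2 fold change -0.34, standard error 0.12). All 3 si-SLCO1B3 libraries lay below all 3 si-NC libraries for *NPM1*. Groups did not overlap for 3 of the 67 genes, 2 lower and 1 higher, against 10.5% of all genes tested. *SLC16A1* had a log2 fold change of -0.40 (standard error 0.16), with overlap between the groups.

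Among 18 cofactors the median was 0.052, and *CDK9*, the kinase that releases paused RNA polymerase, had 62.8, 74.3 and 48.5 CPM in the control libraries, against 91.4, 83.3 and 74.4 CPM after silencing (log2 fold change 0.42, standard error 0.17). Among 16 genes of MYC protein turnover the median was 0.0017. *CIP2A*, which protects MYC from PP2A, had a log2 fold change of -0.30 (standard error 0.10) and *AURKA*, a mitotic kinase known to bind MYC proteins, of -0.35 (standard error 0.14). Among 14 genes of the polyamine pathway the median was 0.039. *AZIN1*, which frees ODC1 from its antizyme, held 245.4, 258.9 and 262.3 CPM in the control libraries, against 188.4, 218.3 and 219.5 CPM after silencing (log2 fold change -0.29, standard error 0.10). Groups did not overlap for 6 of the 18 cofactors, 3 of the 16 turnover genes and 1 of the 14 polyamine genes, against 10.5% of all genes tested. *CDK9*, *CIP2A*, *AURKA* and *AZIN1*, named for their unadjusted p-value, were among these, while the adjusted p-value of each was 0.9998 by edgeR's quasi-likelihood test. The extremes of the polyamine list in si-NC library 1 were *SMOX* (-0.51), *DOHH* (-0.39), *AZIN2* (0.23) and *OAZ3* (0.28). Of the Wnt targets *EPHB2* had a log2 fold change of 0.34 (standard error 0.12), and of the fibroblast markers *LUM* of -0.88 (standard error 0.30). The medians of the MYC-repressed and immediate early lists were -0.056 and 0.084, and 0 of their genes passed 0.05 before adjustment.

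Seed sites of the siRNAs, stretches of 7 bases complementary to positions 2 to 8 of the guide, were searched in each gene's longest GENCODE 29 3′ UTR because an siRNA can lower mRNAs that hold them. The 3′ UTR of *MYC*, 476 bases, held 0 sites of any siRNA of the labels. The site AATCATT of the sequence labelled for si-SLCO1B3 library 3 was present in *MXI1* and *MXD4*, and in 18.8% of 13203 tested genes with a 3′ UTR. The site AGTGGCA of the library 1 label was present in *MXD3* and *MXD4* (18.6% of genes), and TACCACA of the library 5 label in *ODC1* (10.8% of genes). The site TGTCACG of the si-NC sequence was present in 0 of the 10 genes and in 3.59% of all. The sites of *MXI1* and *ODC1* are shown because *MXI1* stood apart in a single si-SLCO1B3 library and the groups of *ODC1* did not overlap. The *MXI1* site is that of the library 3 label, whereas *MXI1* was low in si-SLCO1B3 library 5 (22.7 CPM, against 71.4 CPM in library 3). The *ODC1* site is that of the library 5 label, whereas *ODC1* was lowest in si-SLCO1B3 library 1 (407.3 CPM, against 462.7 and 453.8 CPM in libraries 3 and 5). Sites of *MXD4* and *MXD3* are not printed. *MXD4* was higher after silencing without overlap between the groups, and *MXD3* was higher in mean with overlap. Each is printed in capitals within 29 bases of its 3′ UTR. The part of these sites in the levels was not tested.
MXI1, chromosome 10, position 1131 of 2378 in the 3′ UTR: tttgtttttagAATCATTaccttttacca
ODC1, chromosome 2, position 703 of 756 in the 3′ UTR: aatgtatacggTACCACAtttggcagtca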

How the data were processed

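RNA-seq of 6 HCT116 libraries was analysed. Per the labels, reads were processed with CASAVA 1.8, fastp 0.19.5 and HISAT2 2.1.0 on hg38 (GRCh38), and the counting program is not given in the sources used here. The authors deposited whole-number counts per gene, without normalization, and FPKM made from these counts. Ensembl genes were matched to GENCODE 29, which held 99.5% of them.

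The main test was the quasi-likelihood test of edgeR 4.0.16 (R 4.3.3) without covariates, after TMM scaling and a filterByExpr minimum count of 10, with Benjamini-Hochberg adjustment over 16414 genes, and exact permutation tests of single genes used scipy 1.17.1. The biological coefficient of variation was 21.6%. The test was also run on simulated counts with planted changes between the groups. These counts held no planted steps in single libraries, so nothing is read from them for such steps. Log2 CPM were taken with 0.5 added. Alternatives used DESeq2 1.42.0, limma 3.58.1, other filters, FPKM, a replicate block and each library left out. Libraries of the same number were paired only in the replicate block, and neither the main test nor the permutation tests used the number. Deviations from the group means correlated across genes at 0.12, 0.17 and 0.46 for libraries of the same number (differently numbered libraries, -0.36 to 0.27). Only the libraries numbered 5 thus lay above every differently numbered pair, and whether the numbers mark pairs is not settled.

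The genes named were the 10 members, the 5 nearest profiles to *MYC*, and, of each hand-written list, those with an unadjusted p-value under 0.05 (at most 4) and the 2 highest and 2 lowest ratios of si-NC library 1. A few genes that this rule names are not reported here. AC079781.5, AC092143.1, marker genes and neighbours of *MYC* were named in addition. Members and lists were chosen with earlier results of these data known.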

Additional observations from a re-analysis of the deposited data

How the results depend on the processing

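The limits are those of 3 libraries against 3, of which single libraries decide several values. Without si-NC library 1 the log2 fold change of *MYC* turned from -2.55 to 0.14, and over all libraries left out in turn it ran from -3.06 to 0.14. By the same measure *MAX* ran from -0.36 to 0.25, *MXD1* from -0.73 to 0.40, *MNT* from -0.066 to 0.33 and *NCL* from -0.25 to 0.032, so these turned direction. *MXD1* was also -0.21 under limma-voom, -0.17 with the replicate block and -0.035 under limma on the log2 of FPKM plus 1, and *MAX* was 0.00029 with DESeq2's size factors and 0.0017 without the filter on low counts. *MYCL*, *MXD3*, *MXD4*, *MXI1* and *ODC1* kept their direction under every alternative, and the lowest adjusted p-value of any of the 10 genes was 0.682, by edgeR with the replicate block.

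The number of genes past both thresholds was 0, and 4 under DESeq2 and 0 to 2 with a library left out. Before adjustment 716 genes passed 0.05, 1175 with the replicate block, and 411 (without si-NC library 1) to 936 with a library left out. Of the 10 genes, 1 had such a p-value, 0 did under DESeq2 (which gave *MYC* no p-value) and under limma-voom, and 0 (without si-NC library 1 or si-SLCO1B3 library 3) to 3 with a library left out. With the replicate block the count was again 1, but for *MYCL* in place of *MYC*. The 3 genes without si-NC library 3 were *MYCL*, *ODC1* and *MYC*, and again nothing is read from this for *MYC*. The log2 ratio of *MYC* in si-NC library 1 was 4.03, and 3.82 with 2 CPM added and 3.998 from the FPKM plus 0.1. List medians ran, with a library left out, from -0.18 to 0.15 (nucleolar), -0.19 to 0.024 (metabolic), -0.11 to 0.11 (MYC-repressed), -0.079 to 0.082 (polyamine), 0.012 to 0.10 (*MLX*, *MLXIP*, *MLXIPL* and *MGA*) and -0.15 to -0.042 (colon epithelium). The lowest values of the nucleolar, metabolic, polyamine and colon lists and the highest of the *MLX* list came without si-SLCO1B3 library 5, and the highest of the MYC-repressed list without si-NC library 5. The median of the neighbours of *MYC* was -0.35, and 0.34 without the filter on low counts, where more of them were tested. The cause was not tested for the other values. With a library left out, the alternatives set 2 libraries against 3.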
